A study of Mus musculus with 8 samples.

Results

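The genes described here are 43 interferon response genes, read in sorted mouse Paneth cells after zinc or plain drinking water. They were chosen by name, as genes known to be induced by interferons, but with earlier results of these data known. All 43 were found by Ensembl gene ID among the 55414 gene IDs of the count table. Paneth cells are secretory cells at the base of the small intestinal crypts whose granules hold antimicrobial proteins. All animals were C57BL/6J mice without a mutation or transgene named in the labels. The control group drank Milli-Q water (4 libraries) and the zinc group drank water with 25 mM ZnSO4 (4 libraries), both for 7 days. The labels and the paper's methods name no age or sex for these mice. Each library came from FACS-sorted cells of the small intestine and held 20760764 to 24117111 counts. Replicates differed far beyond sampling noise, so no library was counted as a copy of another. The p-values set the difference between the groups against the spread among these libraries only.

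Interferons are secreted signals of infection. Type I (interferon alpha and beta) and type III (interferon lambda) bind surface receptors whose kinases phosphorylate STAT2, which joins IRF9 in a complex that binds the interferon-stimulated response element, ISRE. Type II interferon (gamma) has its own receptor and acts through the gamma-activated sequence, GAS. In the intestine, epithelial cells are known to respond mainly to interferon lambda and gamma. The induced genes include sensors of foreign nucleic acid, enzymes and coat proteins that block viruses, GTPases that attack vacuoles with parasites or bacteria, and the factors that sustain or end the response.

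RefSeq promoter windows, 250 bases before to 50 after the transcription start, were held for 31 of the 43 members, and each of their 36 windows had 1 exact match in GRCm39. The 12 members without one were Usp18, Oas2, Zbp1, Mx1, Mx2, Gbp4, Gbp6, Iigp1, Parp9, Parp14, Ifi27 and Rtp4. The ISRE core GAAANNGAAA, searched on both strands and so also read as its reverse complement beginning with TTTC, was present in 17 of 31 members (54.8%) and in 3.99% of the 27025 genes of the promoter table. The GAS letters TTCNNNGAA, which read the same on both strands, were present in 11 of 31 (35.5%) and in 9.55% of all genes. Of the 17 members with the core 11 had enough counts to be tested, as had all 11 with GAS letters. Irgm1, which was tested, had 2 cores and no GAS letters, and Trim25, also tested, had neither. The sequences below show how the letters lie in selected members, and a match is a description of the letters, not evidence of binding. Each runs 5′ to 3′ on the strand of its gene with 10 bases on each side, as far as the window goes, and capitals mark the motif.

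The first set shows the ISRE core of antiviral effectors that had too few counts to be tested here, and of Bst2 and Stat2, which were tested. In Isg15 (chr4:156285328-156285357, minus strand) the core at -72 overlapped further cores at -78 and -66. Ifit1 had cores at -104 (chr19:34618175-34618204, plus strand) and -85. Ifit3 at -156 (chr19:34560763-34560792, plus) and its neighbour Ifit3b at -188 (chr19:34585159-34585188, plus) held the same 30 bases. Rsad2 (chr12:26506552-26506581, minus), Oas3 (chr5:120915780-120915809, minus), Bst2 (chr8:71990221-71990250, minus) and Stat2 (chr10:128106135-128106164, plus) had theirs at -120, -75, -124 and -222. All of these lay upstream of the gene as GENCODE M39 draws it.
Isg15: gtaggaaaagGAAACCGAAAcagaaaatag
Ifit1: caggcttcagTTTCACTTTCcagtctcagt
Ifit3: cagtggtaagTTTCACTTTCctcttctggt
Ifit3b: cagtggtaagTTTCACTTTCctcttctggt
Rsad2: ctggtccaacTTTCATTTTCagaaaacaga
Oas3: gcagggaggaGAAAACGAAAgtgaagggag
Bst2: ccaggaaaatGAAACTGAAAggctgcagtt
Stat2: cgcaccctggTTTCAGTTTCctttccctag

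The second set shows GAS letters of members that were readily measured, and of Ifit2, which had GAS letters but no ISRE core in its windows. Irf1 had them at -90 (chr11:53660741-53660769, plus strand) and Irf8 at -171 (chr8:121462916-121462944, plus) and -153. Samhd1 had them at -235 (chr2:156977233-156977261, minus) and Ifit2 at -241 (chr19:34527844-34527871, plus). The windows of Ifit2 ended at 34528537, in a gene that runs from 34527932 to 34554524, so any start further in was not searched. In Bst2 the GAS letters at -136 (chr8:71990234-71990262, minus) overlapped an ISRE core at -130. These also lay upstream of the annotated genes.
Irf1: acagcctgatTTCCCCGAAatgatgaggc
Irf8: caaaagtgatTTCTCGGAAagagagcgct
Samhd1: acaccaccctTTCGGAGAAacacaagggc
Ifit2: catgggagcTTCCTGGAAgaatggataa
Bst2: tctaggggcaTTCCAGGAAaatgaaactg

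Several members are neighbours in the genome (GRCm39). The 4 Ifit genes lay within 104 kb of chromosome 19 (34527932 to 34632174). Oas1a, Oas2 and Oas3 lay within 178 kb of chromosome 5, and Oasl1 and Oasl2 within 41.0 kb elsewhere on chromosome 5. Gbp2, Gbp3 and Gbp7 shared 108 kb of chromosome 3. Parp9, Parp14 and Dtx3l shared 140.0 kb of chromosome 16, where exons of Parp9 and Dtx3l on opposite strands overlap by 458 bases. Igtp and Irgm2 overlap on 1 strand of chromosome 11.

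Which members could be tested was set by the count filter, not by a gap in level. CPM below are counts scaled to library size on the TMM scale, which corrects the library totals for the few genes that take most of the counts. The TMM factors were 0.764 and 0.775 in replicate 1 of water and zinc and 1.21 and 1.23 in replicate 4. Of 43 members, 30 passed the count filter of edgeR and entered the test, and 13 did not. The untested members were Isg15, Ifit1, Ifit3, Ifit3b, Oas2, Oas3, Mx1, Mx2, Rsad2, Gbp4, Gbp6, Iigp1 and Ifi44, with at most 44 counts in any library. Many of these are the genes by which an interferon response is usually recognised, such as Isg15, a ubiquitin-like modifier, and Rsad2 (viperin), which blocks viral replication. Mx1, a GTPase against influenza virus, had 0 counts in all 8 libraries, and Mx2 had 1 count in all. A count of 0 allows up to 3 counts, which was 0.115 to 0.188 CPM by library.

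Levels of different genes are compared per kilobase of merged exon, as the mean over the 8 libraries. Trim25, the ubiquitin ligase that acts on the RNA sensor RIG-I, was highest at 12.3 ± 1.33 CPM per kilobase (SD, n = 8). Samhd1, which cleaves the nucleotides that viruses need, followed at 7.96 ± 0.986, and Irf1, a transcription factor of the gamma response, at 7.13 ± 0.913. Every library of Trim25 lay above every library of Samhd1, whereas Samhd1 and Irf1 overlapped. Irgm1, a GTPase that regulates autophagy, stood at 5.10, Irf8 at 4.30 and Bst2 (tetherin), which holds budding virions at the cell surface, at 4.17 CPM per kilobase. The only other neighbours in this order whose libraries did not overlap were Bst2 and Ifi35, and Ifi35 stood at 2.57. The median of all 43 members, untested ones included, was 0.698 CPM per kilobase. Among the tested members alone it was 1.71, against 1.98 over all tested genes. Of the members, 11 lay above 1.98.

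**Figure D1:**
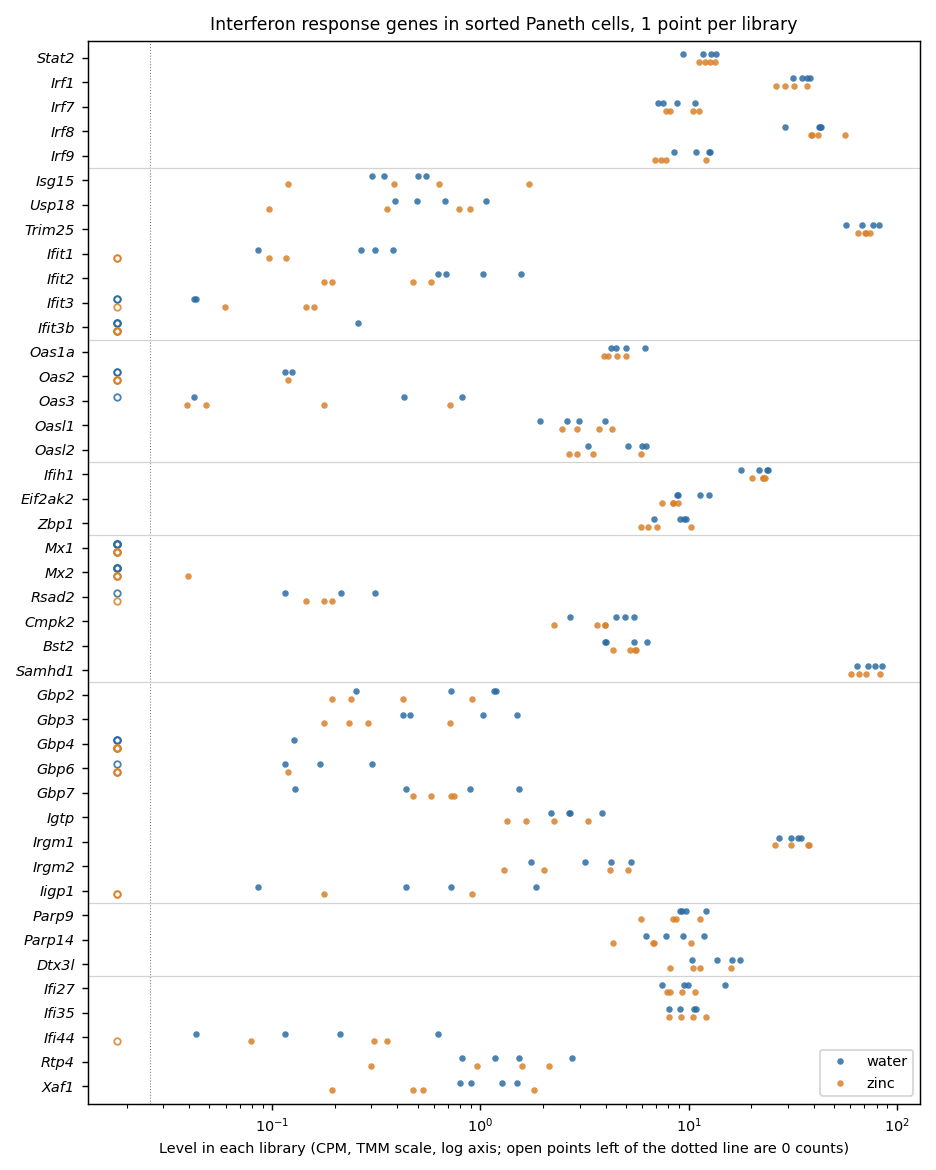
Level of each of the 43 interferon response genes in every library, in CPM on the TMM scale along a log axis, grouped by role, with 1 point per library (blue water, orange zinc) and open points for 0 counts. Trim25, Samhd1, Irf8, Irf1, Irgm1 and Ifih1 lie to the right in both groups, Mx1 is at 0 in all 8 libraries, and blue and orange points overlap for all genes except Ifit2 among the tested genes.

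Members with an ISRE core in the window had a median level of 0.546 CPM per kilobase (17 members, 0.0158 to 5.10), and members with a window and no core 1.98 (14 members, 0.0353 to 12.3). The members with GAS letters had a median of 1.72 (11 members) and those without them 0.712 (20 members). The ranges overlapped in both splits, and no test was made because the members share a pathway and neighbours share a locus.

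**Figure D2:**
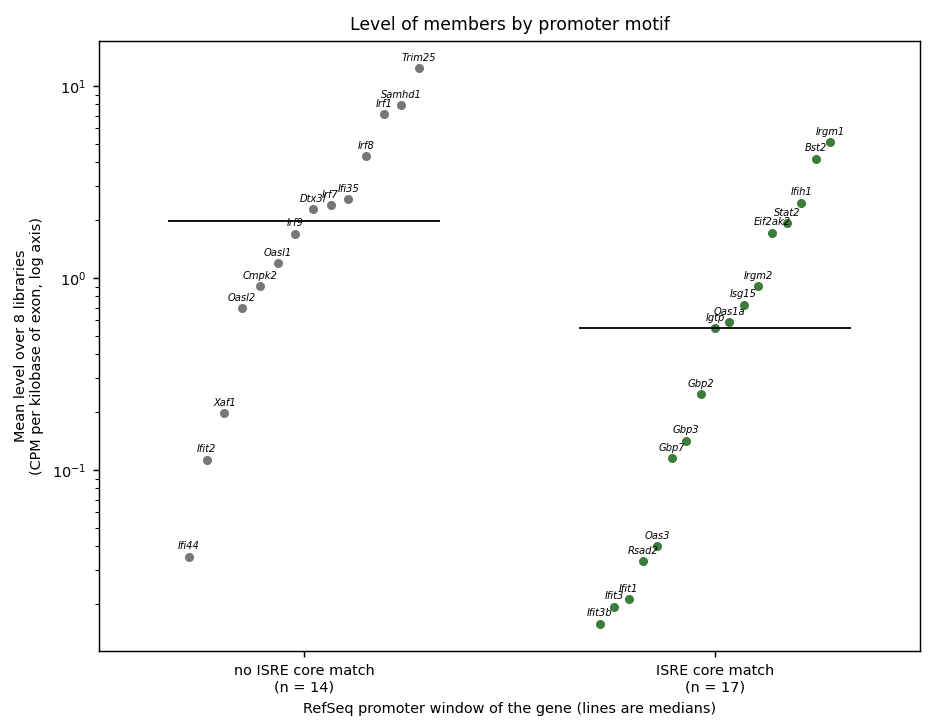
Mean level over 8 libraries in CPM per kilobase of exon (log axis) of the 31 members with a RefSeq promoter window, split by whether the window holds the ISRE core, with 1 point per gene and lines at the medians. The 17 members with the core have a median of 0.546 and the 14 without it 1.98, and the ranges overlap.

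The treatment reached the sorted cells, as read from the genes that zinc is known to induce. The metallothionein Mt1 stood at 13.7 to 29.1 CPM in water and 189 to 425 in zinc, a log2 fold change of 3.65 ± 0.38 (SE; edgeR quasi-likelihood test, adjusted p = 0.0259). Mt2 rose by 6.15 ± 0.51 and the zinc exporter Slc30a1 by 2.01 ± 0.29 on the log2 scale (adjusted p = 0.0198 for each). The 8 Paneth cell markers took 438000 to 541000 CPM of library totals in water and 419000 to 545000 in zinc. On the TMM scale their sum ran from 362000 to 709000 CPM in water and from 342000 to 704000 in zinc. It was highest in replicate 1 and lowest in replicate 4 of each group.

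No interferon response gene passed the test between zinc and water. The count was 0 of 30, the smallest adjusted p was 0.998, and 0.0834% of all 11988 tested genes passed (3 higher, 7 lower with zinc). At an unadjusted p below 0.05 the count was 1 of 30 (Ifit2), against 4.65% of all tested genes. DESeq2 and limma-voom also called 0 members past the threshold and 1 at an unadjusted p below 0.05. The fitted value was below 0 in 22 of 30 members (73.3%), against 48.1% of all tested genes, and the median log2 fold change was -0.23 against 0.009 over all tested genes. That median was -0.36 without zinc replicate 3 and -0.14 without zinc replicate 2 or without water replicate 1. The count below 0 and the median were not tested, as the members were chosen with earlier results known. The 95% interval held 0 for 29 of 30 members and lay wholly between -1 and 1 for 20 of them. In bulk RNA, fewer cells of a type and less RNA per cell cannot be told apart.

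**Figure D3:**
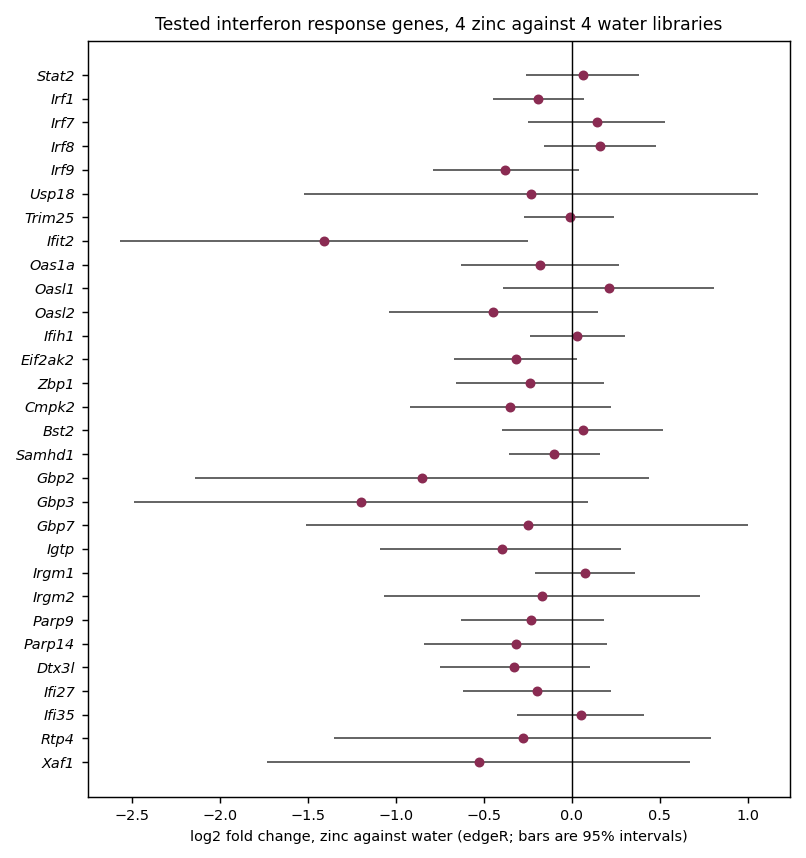
Log2 fold change of zinc against water with its 95% interval (edgeR) for the 30 tested interferon response genes, in the order of their roles, with a line at 0. 22 points lie left of 0, the interval of Ifit2 alone does not reach 0, and the intervals of Ifit2, Gbp2, Gbp3, Gbp7, Usp18, Xaf1 and Rtp4 are wide.

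Among the transcription factors, 5 of 5 were tested, 2 with values below 0 and 3 above. Irf1 stood at 35.0, 31.9, 38.3 and 37.0 CPM in water and at 29.0, 26.2, 32.2 and 37.0 in zinc (mean 35.6 ± 2.81 and 31.1 ± 4.62, SD, n = 4). Zinc replicates 1 and 2 lay below all water libraries and zinc replicate 4 was level with water replicate 4, so the groups overlapped. The log2 fold change was -0.19 ± 0.12 (SE, adjusted p = 0.998). Irf9, the DNA-binding partner of STAT2, had 12.6, 10.9, 12.7 and 8.55 CPM in water and 6.89, 7.82, 12.2 and 7.37 in zinc. Of the zinc libraries only replicate 3 reached the water levels, and the value was -0.38 ± 0.20. Stat2, Irf7, which amplifies type I interferon, and Irf8, known from myeloid cells, had values of 0.061, 0.14 and 0.16. Irf8 ran from 29.1 to 43.5 CPM in water and from 38.8 to 56.6 in zinc.

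The Ifit, Isg15 and regulator group had 3 of 7 members tested. IFIT proteins bind viral RNA and stop its translation. Ifit2 stood at 0.625, 0.687, 1.57 and 1.03 CPM in water and 0.178, 0.193, 0.474 and 0.582 in zinc. All 4 zinc libraries lay below all 4 water libraries, which was so for 1 of 30 members (Ifit2) and for 1.59% of all tested genes. With library totals in place of the TMM scale the groups of Ifit2 overlapped, and 0 members were separate. Its mean was 0.977 ± 0.431 in water and 0.357 ± 0.203 in zinc (SD, n = 4), a log2 fold change of -1.41 ± 0.55 (SE, 95% interval -2.57 to -0.25, edgeR adjusted p = 0.998). The gene had 124 counts over all libraries, and its unadjusted p was not below 0.05 without water replicate 3, without zinc replicate 1 or without zinc replicate 2. Its neighbour Ifit1 had 5, 2, 9 and 7 counts in water and 0, 2, 0 and 3 in zinc, and Ifit3 had 0 to 1 and 0 to 4. All 6 counts of Ifit3b came from water replicate 2. Of 75-base windows, 76.5% of Ifit3 and 63.1% of Ifit3b occurred in no other gene, so that reads of this pair may be shared.

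Isg15 had 8, 7, 13 and 9 counts in water and 2, 8, 16 and 44 in zinc, and thus both its lowest and its highest library in the zinc group. Usp18, which removes ISG15 from proteins, ran from 0.387 to 1.06 CPM in water and from 0.0966 to 0.892 in zinc. Trim25 stood at 76.7, 67.8, 82.1 and 56.8 CPM in water and 70.2, 71.1, 74.6 and 65.4 in zinc. Every zinc library lay inside the range of the water libraries, and the log2 fold change was -0.011 ± 0.12 with a 95% interval of -0.27 to 0.24.

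The Oas family makes or resembles the enzymes that make oligoadenylate, which activates RNase L against viral RNA, and 3 of 5 members were tested. Oasl1 stood at 1.94, 2.62, 3.98 and 2.98 CPM in water and 2.91, 2.46, 3.71 and 4.27 in zinc. Its log2 fold change of 0.21 ± 0.28 (adjusted p = 0.998) was the highest of any tested member, and the groups overlapped. Oasl2 had a value of -0.45 ± 0.28, with 6.00, 5.11, 6.22 and 3.28 CPM in water and 2.67, 2.90, 5.93 and 3.49 in zinc. Only zinc replicate 3 was near the upper water libraries. Oas1a, of which 88.4% of windows were in no other gene and most of the rest in Oas1g, ran from 4.25 to 6.19 CPM in water and 3.92 to 4.99 in zinc. Oas3 had 13, 10, 1 and 0 counts in water and 3, 1, 18 and 1 in zinc, and Oas2 had at most 3 counts.

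The nucleic acid sensors were all tested. Ifih1 (MDA5), which senses long double-stranded RNA, stood at 24, 21.7, 23.9 and 17.8 CPM in water and 22.7, 20.1, 23.4 and 22.9 in zinc. The zinc libraries lay within the water range, and the value was 0.027 ± 0.13. Eif2ak2 (PKR), which stops translation on double-stranded RNA, ran from 8.76 to 12.5 CPM in water and 7.42 to 8.93 in zinc, with a value of -0.32 ± 0.17. Zbp1, a sensor of Z-form nucleic acid that can start necroptosis, ran from 6.83 to 9.74 and 5.89 to 10.3 CPM, with a value of -0.24 ± 0.20.

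Among the other antiviral effectors 3 of 6 were tested. Samhd1 stood at 84.7, 73.2, 79.1 and 64.8 CPM in water and 83.6, 60.3, 65.9 and 71.2 in zinc, with a log2 fold change of -0.10 ± 0.12. The lowest zinc library lay under all water libraries and the highest near the top of the water range. Bst2 ran from 3.98 to 6.32 CPM in water and from 4.33 to 5.61 in zinc (0.061 ± 0.22). Cmpk2, a mitochondrial nucleotide kinase whose gene neighbours Rsad2, ran from 2.71 to 5.46 and from 2.25 to 3.99 (-0.35 ± 0.27). Rsad2 itself had 0 to 5 counts in each group.

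The interferon-inducible GTPases act on membranes around intracellular bacteria and parasites, and 6 of 9 were tested, 5 of them with values below 0. Irgm1 stood at 34.6, 33.6, 31.0 and 27.2 CPM in water and 30.9, 26.1, 37.6 and 38.0 in zinc (0.072 ± 0.13). Zinc replicate 2 was the lowest of all 8 libraries and zinc replicates 3 and 4 the highest. Igtp had 2.69, 2.66, 3.85 and 2.18 CPM in water and 1.66, 1.35, 3.28 and 2.25 in zinc (-0.40 ± 0.33). Irgm2 had 4.25, 5.28, 3.17 and 1.76 CPM in water and 2.02, 1.30, 5.14 and 4.19 in zinc (-0.17 ± 0.42). In each of these the lowest zinc library was replicate 2, and Igtp and Irgm2 share part of their exons and windows.

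The guanylate-binding proteins were low. Gbp3 had 1.5, 1.03, 0.423 and 0.458 CPM in water and 0.178, 0.290, 0.711 and 0.233 in zinc (-1.20 ± 0.61, 95% interval -2.49 to 0.09). Gbp2 ran from 0.254 to 1.19 and from 0.193 to 0.909 CPM (-0.85 ± 0.61), and Gbp7 from 0.129 to 1.53 and from 0.475 to 0.751 (-0.25 ± 0.60). Gbp6 had at most 7 counts and 42.8% of its windows in no other gene, and Gbp4 had 3 counts, all in water replicate 3. Iigp1, whose protein acts on Toxoplasma vacuoles, had 7, 2, 44 and 19 counts in water and 3, 0, 23 and 0 in zinc. Its highest library in each group was replicate 3.

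The ADP-ribosylation genes, whose PARP9 and DTX3L proteins form a complex with ubiquitin ligase activity, had 3 of 3 values below 0. Dtx3l stood at 10.4, 13.7, 17.6 and 16.2 CPM in water and 8.19, 10.5, 16 and 11.4 in zinc (-0.33 ± 0.20). Zinc replicate 3 lay among the upper water libraries and zinc replicate 1 under all of them. Parp14 ran from 6.25 to 11.9 CPM in water and 4.33 to 10.3 in zinc (-0.32 ± 0.25), and Parp9 from 9.13 to 12.1 and 5.89 to 11.3 (-0.23 ± 0.19). In both, zinc replicate 3 was the highest zinc library.

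Of the other induced genes 4 of 5 were tested. Ifi35, which binds the partner protein NMI, stood at 10.6, 10.9, 8.04 and 9.13 CPM in water and 9.20, 8.06, 12.1 and 10.5 in zinc (0.051 ± 0.17). It shares 620 exon bases with Vat1 on the opposite strand, which had 11489 counts against 1750 for Ifi35. Ifi27, a small mitochondrial protein, ran from 7.48 to 14.9 and from 7.92 to 10.7 CPM (-0.20 ± 0.20). Rtp4 and Xaf1, a binder of the apoptosis inhibitor XIAP, ran from 0.194 to 2.75 CPM over both groups, with values of -0.28 ± 0.51 and -0.53 ± 0.57. The value of Xaf1 was -1.49 without zinc replicate 3 and -0.21 without zinc replicate 4. Ifi44 had at most 10 counts.

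The members were also counted by abundance, with no test of the difference. Among the 8 tested members with a mean of 10 CPM or more, 4 were below 0 and the median log2 fold change was 0.01, against 44.9% and 0.02 for all genes that abundant. Among the 22 members under 10 CPM, 18 were below 0 and the median was -0.27, against 52.1% and -0.02. This limit was chosen after the values were seen.

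The zinc libraries did not move as a group. Each member was placed against its median over the 8 libraries. In zinc replicates 1 and 2 only 2 and 3 of 30 members lay above that median, whereas in zinc replicate 3 the number was 25 and in zinc replicate 4 it was 12. In water replicates 1 to 4 it was 24, 18, 22 and 14. Of all tested genes, 49.1% to 51.0% lay above their median in each library. Zinc replicates 1 and 2 held the lowest value of 17 of 30 members, against 21.9% of all tested genes, and the highest value of none. Zinc replicate 3 was the highest zinc library for 20 of 30 members (66.7%), against 23.1% of all tested genes.

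**Figure D4:**
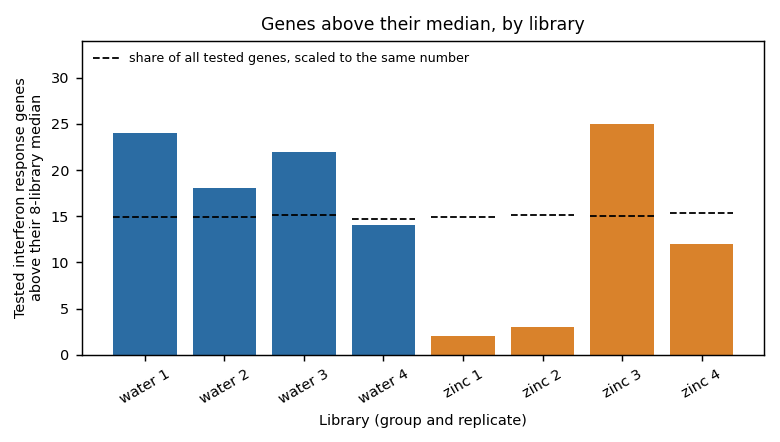
Number of the 30 tested interferon response genes that lie above their own 8-library median in each library (bars, blue water and orange zinc), with dashed lines at the share of all tested genes scaled to 30. Zinc replicates 1 and 2 have 2 and 3 genes above, zinc replicate 3 has 25, and the dashed lines are near the middle in every library.

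The median deviation of the 30 members from their 8-library mean, as log2 of CPM plus 0.5, was -0.24 and -0.29 in zinc replicates 1 and 2 and 0.22 and -0.10 in zinc replicates 3 and 4. In water it was 0.14, -0.01, 0.12 and -0.12. Over all tested genes it lay between -0.02 and 0 in every library. The pattern depended in part on the scaling. With library totals alone, 0, 4, 27 and 23 members lay above their median in zinc replicates 1 to 4, against 10.2%, 45.5%, 60% and 83.4% of all tested genes. In water replicates 1 to 4 the numbers were 7, 15, 24 and 20, against 11.0%, 50.1%, 58.7% and 81.1%. Water replicate 1 thus had the most members above of the water libraries on the TMM scale and the fewest on library totals. Zinc replicate 3 still stood above and zinc replicates 1 and 2 below the share of all genes on both scales, whereas zinc replicate 4 lay under it on both by less.

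**Figure D5:**
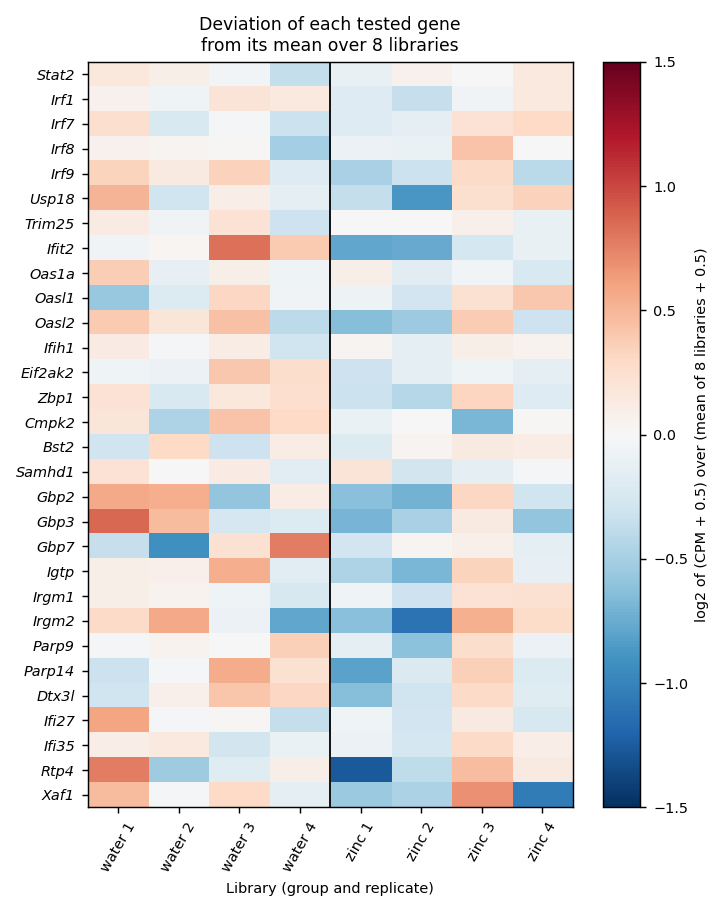
Deviation of the 30 tested interferon response genes from their mean over 8 libraries, as log2 of CPM plus 0.5, with 1 column per library and a line between water and zinc. The columns of zinc replicates 1 and 2 are mostly blue (medians -0.24 and -0.29) and that of zinc replicate 3 mostly red (median 0.22).

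The comparison of zinc with water moved with single zinc libraries. Without zinc replicate 3, 9 of 30 members had an unadjusted p below 0.05, all with lower values, against 4.61% of all tested genes, and 6 did not overlap between the groups, all with zinc below water, against 3.06%. The 9 were Ifit2, Irf9, Oasl2, Zbp1, Gbp2, Gbp3, Parp14, Dtx3l and Xaf1, and their smallest adjusted p was 0.785, for Irf9 (log2 fold change -0.61). Without zinc replicate 1 or without zinc replicate 2 the number was 0. Leaving out a library because of its values would select on the outcome, so the values with all 8 libraries stand as the result.

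The rest of the pathway was read from 5 lists of 97 further genes, of which 53 were tested. Of these, 0 passed the threshold, 5 had an unadjusted p below 0.05 (4.65% of all tested genes had), 36 had values below 0 and 17 above (48.1% of all tested genes lay below 0), and the median was -0.08 against 0.009 over all tested genes. All 15 interferon genes, among them Ifnb1, Ifng, Ifnl2, Ifnl3 and 8 of the Ifna family, had 0 counts in all 8 libraries. All interferon receptor chains and their kinases on the lists were tested. Ifngr1, the ligand-binding chain of the gamma receptor, stood at 28.8, 35.0, 38.2 and 51.9 CPM in water and 28.3, 32.0, 28 and 24.4 in zinc (-0.45 ± 0.16, adjusted p = 0.881). The partner chain Ifngr2 had 28.3, 26.9, 42.2 and 39.2 CPM in water and 25.8, 26.2, 25.9 and 28 in zinc (-0.37 ± 0.14, adjusted p = 0.998). In both genes 3 of 4 zinc libraries lay below all water libraries, and the groups overlapped through zinc replicate 2 for Ifngr1 and zinc replicate 4 for Ifngr2. The receptor kinase Jak1 (77.1 to 98.7 CPM in water) had a value of 0.030 ± 0.11, and the lambda receptor chain Ifnlr1, known as an epithelial receptor, stood at 0.772 to 2.07 CPM over all libraries.

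Of the sensors, adaptors and their factors 13 of 17 were tested, of the inhibitors 7 of 7 and of the other interferon-stimulated genes 23 of 48. The smallest p in these lists belonged to Cgas, the cytosolic DNA sensor (-0.71 ± 0.31, adjusted p = 0.998), to Pias4, a SUMO ligase known as an inhibitor of interferon signalling (-0.24 ± 0.13, adjusted p = 0.998), and to Ifi47, a further interferon-inducible GTPase. Ifi47 stood at 5.75, 9.41, 8.80 and 9.81 CPM in water and 3.86, 5.41, 6.04 and 5.78 in zinc (-0.68 ± 0.21, adjusted p = 0.684). Its groups overlapped through water replicate 1. Slfn2, the last of the 5 genes with an unadjusted p below 0.05, ran from 0.305 to 1.99 CPM in water and from 0.116 to 0.909 in zinc (-1.72 ± 0.68, adjusted p = 0.998). Ifitm3, a block to viral entry named after its values were seen, had 74.7, 68.2, 62.2 and 66.0 CPM in water and 37.6, 33.3, 78.0 and 34.5 in zinc (-0.56 ± 0.27, adjusted p = 0.998). For Ifitm3, zinc replicate 3 was the only zinc library at the water level. The related gene Ifitm2 had 45.0, 43.7, 37.9 and 50.2 CPM in water and 40.8, 39.2, 37.0 and 42.7 in zinc (-0.15 ± 0.11, adjusted p = 0.998). There zinc replicate 3 was the lowest library. Cxcl10, an interferon-induced chemokine also named after its values were seen, had 36 counts in zinc replicate 4 and at most 5 in any other library.

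Immune cells carry many of these genes, so their markers were read beside them. The 16 leukocyte markers summed to 0.344 to 1.53 CPM in water and 0.238 to 1.03 in zinc (exact permutation test, two-sided, p = 0.429, adjusted over 8 marker lists 0.858). Cd3e, Cd3g, Cd8a and Itgax were at 0 in all libraries, and the highest count was 32. By library the sum was 1.06, 0.344, 0.508 and 1.53 CPM in water and 0.238, 0.290, 1.03 and 0.970 in zinc. These sums rest on 4 to 40 counts in a library, and 32 counts in water replicate 4 were of Ptprc alone. Zinc replicates 1 and 2 were lowest. Water replicate 4 was highest, yet on the TMM scale it had the fewest members above their median of the water libraries (14). The part of leukocytes in the pattern of the members was not tested. The 6 stroma markers summed to at most 1.31 CPM, with Cdh5, Col1a1, Col1a2 and Pdgfra at 0. Sums were larger for the 8 enterocyte markers, 263 to 398 CPM in water and 315 to 359 in zinc. The 6 goblet cell markers summed to 8130 to 13700 CPM in water and 10200 to 13300 in zinc. The sums of tuft and enteroendocrine markers ran from 14.0 to 120 and from 3.94 to 85.7 CPM over all libraries, and in zinc they were lowest in replicate 1. The 4 tuft markers stood at 14.0, 27.1, 51.4 and 120 CPM in water replicates 1 to 4 and at 17.1, 49.0, 81.6 and 61.0 in zinc replicates 1 to 4. On the same TMM scale, 24, 18, 22 and 14 of 30 members lay above their median in water replicates 1 to 4. In zinc replicates 1 to 4 the numbers were 2, 3, 25 and 12. With library totals alone, water replicates 1 and 4 had 7 and 20 members above, and zinc replicates 1 to 4 had 0, 4, 27 and 23. A link between tuft markers and members was not tested. The 6 stem cell markers summed to 4820 to 6370 CPM in water and 3590 to 5010 in zinc (exact p = 0.0571, adjusted 0.457), and most of that sum was Olfm4, at 4080 to 5480 CPM in water and 2800 to 4150 in zinc.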

How the data were processed

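RNA of FACS-sorted Paneth cells from 8 mice was made into libraries with a stranded mRNA kit. The values deposited by the authors are raw counts of reads for each Ensembl gene ID, 1 column per mouse. The submitters' processing notes name FastQC 0.12.0, STAR 2.7.0a, DESeq2 and mm39, while the counter, its annotation and its strand and multi-mapping settings are not stated there. Unknown strand handling leaves genes on opposite strands with shared exons uncertain.

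IDs were matched to GENCODE M39 on GRCm39 (54749 of 55414). Genes that passed filterByExpr (11988) were tested with the quasi-likelihood F test of edgeR 4.0.16 in R 4.3.3 (TMM, treatment as the only term, Benjamini-Hochberg over all tested genes, threshold 0.05). The SE is the fold change over the root of F. The script was tested on simulated data. Alternatives were RLE scaling, library totals, no Defa genes, DESeq2 1.42.0, limma-voom 3.58.1, other count filters, a replicate block and each library left out. Leaving out both replicates 4 was added after seeing the data. Marker sums were compared by exact permutation over 70 assignments, which allows p = 0.0286 at the smallest. Exon windows of 75 bases were searched in all transcripts. Promoter sequences are from RefSeq and were placed by exact match.

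Members and lists were chosen with earlier results of these data known. Named were members with unadjusted p below 0.05, without overlap, with the largest change each way, or highest per kilobase in a role, and the smallest p of each pathway list. Other named genes were chosen after their values were seen. A pathway gene is not reported here.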

Additional observations from a re-analysis of the deposited data

Results flagged for a closer look

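Dixon's test for a lone library was run on 78 groups of 4 libraries, and 2 were past its 95% limit. Chance gives about 1 in 20 such groups. Both belong to Irf8, a transcription factor. In water, replicate 4 was lowest at 29.1 CPM, with the others at 42.3 to 43.5. In zinc, replicate 3 was highest at 56.6 CPM, with the others at 38.8 to 41.8. The log2 fold change of Irf8 was 0.16 with all libraries and 0.011 to 0.22 with 1 library left out.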

How the results depend on the processing

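No interferon response gene passed the adjusted threshold under any alternative (smallest adjusted p 0.557). Of 263 member fold changes under the 9 alternatives that did not leave out 1 library, 253 kept their direction and 10 reversed. These were Trim25 at 0.0022 and Gbp7 at 0.17 with limma-voom, the same genes at 0.00081 and 0.009 with a replicate block, and, without water and zinc replicate 4, Stat2 at -0.085, Irf7 at -0.036 (0.043 to 0.27 with 1 library left out), Ifih1 at -0.077, Gbp7 at 0.42, Irgm1 at -0.070 and Ifi35 at -0.0027. Leaving out 1 library reversed 20 of 240 values in 11 members, with ranges of -0.042 to 0.13 for Stat2, -0.60 to 0.099 for Usp18 (-0.70 without both replicates 4), -0.11 to 0.064 for Trim25, -0.064 to 0.074 for Ifih1, -0.038 to 0.19 for Bst2, -0.61 to 0.37 for Gbp7, -0.0055 to 0.17 for Irgm1, -0.51 to 0.083 for Irgm2 (-0.57 without both replicates 4), -0.34 to 0.011 for Ifi27, -0.063 to 0.14 for Ifi35 and -0.68 to 0.11 for Rtp4. It gave 1 to 15 genes past the threshold (1 without water replicate 2, 4 without water replicate 3, 3 without zinc replicate 2), 0 to 9 members with unadjusted p below 0.05, and 1 to 6 members without overlap.

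Genes past the threshold numbered 10, and 34 with DESeq2, 32 with a replicate block and 66 with no low-count filter. Members with unadjusted p below 0.05 numbered 1, and 4 of 42 with no filter, 0 of 23 with a mean count of at least 50, and 3 with the block (Ifit2, Irf9 and Dtx3l). Members without overlap numbered 0 on library totals and 0 at a mean count of at least 50, which leaves Ifit2 out. Otherwise the causes were not tested. The deviations of same-numbered libraries correlated at 0.233, 5.51e-05, 0.127 and 0.263 in replicates 1 to 4. In replicates 1, 3 and 4 this was above every correlation between different numbers. The highest of those was 0.04, between water replicate 3 and zinc replicate 2. Water replicate 2 had correlations of -0.0036 to 0.0025 with the zinc libraries and was not highest with its own number. The main test did not take the numbers as pairs, whereas the replicate block did. Whether the numbers mark pairs was not tested. Without both replicates 4, 26 members were below 0, with a median of -0.27.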
